A study of Arabidopsis with 27 samples.

Results

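CBF1 (AT4G25490), CBF2 (AT4G25470), CBF3 (AT4G25480, listed in RefSeq as DREB1A) and DREB2A (AT5G05410) are 4 transcription factor genes of Arabidopsis, chosen by their identifiers from the 32824 genes of an FPKM table. All 4 were found in the table. RNA was sequenced from systemic rosette leaves, frozen 30 min after a different, local leaf was given eATP (given per the labels as 300 µM of the analogue βγmeATP), 100 mM L-Glu or a mock buffer. Plants labelled glr3.3glr3.6 (a line named for 2 glutamate receptor-like channels), plants labelled p2k1p2k2 (a line named for 2 lectin receptor kinases that sense extracellular ATP) and wild-type Col-0 plants each received the 3 treatments, which gave 9 groups of 3 libraries. All plants were 4 weeks old and had grown under 10 h of light and 14 h of dark, and each library came from a pool of 8 plants. The pools of every group are numbered 1, 2 and 3 in the labels, which do not say what libraries of the same number share, so p-values measure the spread between pools.

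The 4 proteins belong to the DREB group of AP2/ERF factors, which bind the dehydration-responsive or C-repeat element in promoters of protective genes. CBF1, CBF2 and CBF3 are transcribed within minutes to hours of chilling, under the control of ICE1, CAMTA factors, light and the circadian clock, and switch on the COR genes that prepare leaves for freezing. DREB2A serves drought, salt and heat responses: its transcript is induced by stress, and its protein is kept low by ubiquitin ligases until stress stabilises it. Systemic signals that follow local wounding or high light are known to change transcripts of such stress factors in distant leaves within minutes.

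The FPKM of a library summed to between 740955 and 822758, with 21042 to 21843 genes detected above 0. FPKM carry no read counts, so depth was unknown and no counting interval was computed. As markers of leaf, RBCS1A (small subunit of Rubisco) averaged 9177 FPKM and LHCB1.1 (light-harvesting antenna) 5738 FPKM. STM, WUS and CLV3 of the shoot apex and EXPA7 and RHD6 of the root were listed at 0 in all 27 libraries. The remaining root marker, CASP1, was not at 0 throughout, and the 3 root markers summed to at most 0.281 FPKM. The flower markers AP3, AG and PI summed to 0.0551 to 0.826 FPKM. The genes for which the lines are named were higher, not lower, in the libraries labelled with them, and how the lines were made is not given in the sources used here. GLR3.6 ranged from 70.5 to 134.8 FPKM in libraries labelled glr3.3glr3.6, against 0.827 to 1.42 FPKM in Col-0 libraries. GLR3.3 ranged from 5.85 to 8.05 FPKM in libraries labelled glr3.3glr3.6, against 3.19 to 4.97 FPKM in Col-0 libraries. P2K2 ranged from 6.15 to 37.7 FPKM in libraries labelled p2k1p2k2, against 0.351 to 0.967 FPKM in Col-0 libraries. P2K1 ranged from 3.44 to 10.2 FPKM in libraries labelled p2k1p2k2, against 0.917 to 2.18 FPKM in Col-0 libraries. Every direction given below for these lines therefore rests on the labels.

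CBF2 and DREB2A were the measurable members. On the FPKM scale, which is per transcript length, DREB2A averaged 9.32 ± 5.67 FPKM (SD, n = 27), with a lowest value of 2.78, a median of 8.40 and a highest value of 25.01 FPKM. CBF2 averaged 4.93 ± 2.91 FPKM (SD, n = 27), from 1.85 to 13.3 FPKM with a median of 3.99 FPKM. CBF1 averaged 0.658 ± 0.355 FPKM (SD, n = 27) and was under 1 FPKM in 22 of 27 libraries. CBF3 averaged 0.224 ± 0.156 FPKM (SD, n = 27) and was under 1 FPKM in all 27 libraries, though in none was it listed at 0. A mean of at least 1 FPKM over all libraries was required for the tests, which 16577 genes met: CBF2 and DREB2A passed, and CBF1 and CBF3 did not. Of the genes tested, 29.0% had a lower mean than CBF2 and 46.1% a lower mean than DREB2A. CBF1 and CBF3 are therefore given from a fit of all 32824 genes. In the reference gene order CBF1, CBF3 and CBF2 stand in a row on chromosome 4, with 0 protein-coding genes between CBF1 and CBF3 and 0 between CBF3 and CBF2, while DREB2A lies on chromosome 5. The 3 CBF genes are similar in sequence, and how shared reads were divided among them is not given in the sources used here. The split between CBF1, CBF2 and CBF3 is therefore uncertain.

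CBF2, which can both act as an activator of COR genes and restrain its 2 neighbours, varied between pools of the same group as much as between groups. In libraries labelled glr3.3glr3.6, CBF2 was at 13.3, 3.34 and 5.15 FPKM after eATP (pools 1, 2 and 3), 3.92, 3.57 and 5.61 FPKM after L-Glu, and 3.55, 1.85 and 4.90 FPKM after mock. In libraries labelled p2k1p2k2, CBF2 was at 4.30, 3.803 and 3.99 FPKM after eATP, 3.22, 2.12 and 3.32 FPKM after L-Glu, and 9.10, 1.88 and 2.45 FPKM after mock. In Col-0 libraries, CBF2 was at 12.7, 5.53 and 3.29 FPKM after eATP, 5.35, 6.06 and 3.99 FPKM after L-Glu, and 8.70, 5.67 and 2.61 FPKM after mock. The highest values, 13.3 and 12.7 FPKM, both came from pool 1 after eATP, and pools 2 and 3 of the same 2 groups lay at 3.29 to 5.53 FPKM.

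DREB2A, a factor induced by drought, salt and heat, showed pool 1 above pools 2 and 3 in all groups but 1. In libraries labelled glr3.3glr3.6, DREB2A was at 14.9, 4.0 and 6.69 FPKM after eATP (pools 1, 2 and 3), 11.99, 3.22 and 10.96 FPKM after L-Glu, and 7.17, 2.78 and 3.91 FPKM after mock. In libraries labelled p2k1p2k2, DREB2A was at 19.5, 4.30 and 6.56 FPKM after eATP, 8.40, 3.69 and 9.02 FPKM after L-Glu, and 18.3, 3.93 and 10.3 FPKM after mock. In Col-0 libraries, DREB2A was at 25.01, 10.5 and 12.4 FPKM after eATP, 14.8, 7.32 and 5.41 FPKM after L-Glu, and 14.0, 9.46 and 3.16 FPKM after mock. The highest value was that of Col-0 eATP pool 1, and the one group in which pool 1 was not the highest was p2k1p2k2 after L-Glu.

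CBF1, an activator of the same COR genes, was low throughout. In libraries labelled glr3.3glr3.6, CBF1 was at 1.22, 0.508 and 1.11 FPKM after eATP (pools 1, 2 and 3), 0.925, 0.388 and 1.42 FPKM after L-Glu, and 0.166, 0.182 and 1.16 FPKM after mock. In libraries labelled p2k1p2k2, CBF1 was at 0.648, 0.291 and 0.393 FPKM after eATP, 0.397, 0.597 and 0.560 FPKM after L-Glu, and 0.339, 0.543 and 0.467 FPKM after mock. In Col-0 libraries, CBF1 was at 1.36, 0.953 and 0.852 FPKM after eATP, 0.424, 0.712 and 0.563 FPKM after L-Glu, and 0.791, 0.378 and 0.407 FPKM after mock. The 3 Col-0 eATP libraries lay above the 3 Col-0 mock libraries and above the 3 Col-0 L-Glu libraries, with no overlap.

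CBF3, another activator of the COR genes, was the lowest of the 4. In libraries labelled glr3.3glr3.6, CBF3 was at 0.148, 0.0431 and 0.518 FPKM after eATP (pools 1, 2 and 3), 0.174, 0.165 and 0.321 FPKM after L-Glu, and 0.188, 0.116 and 0.386 FPKM after mock. In libraries labelled p2k1p2k2, CBF3 was at 0.0423, 0.0412 and 0.166 FPKM after eATP, 0.0481, 0.149 and 0.355 FPKM after L-Glu, and 0.205, 0.419 and 0.308 FPKM after mock. In Col-0 libraries, CBF3 was at 0.0721, 0.212 and 0.152 FPKM after eATP, 0.0898, 0.129 and 0.382 FPKM after L-Glu, and 0.179, 0.640 and 0.388 FPKM after mock. The p2k1p2k2 eATP libraries lay below the p2k1p2k2 mock libraries with no overlap, whereas in both other genotypes the eATP and mock libraries overlapped.

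**Figure D1:**
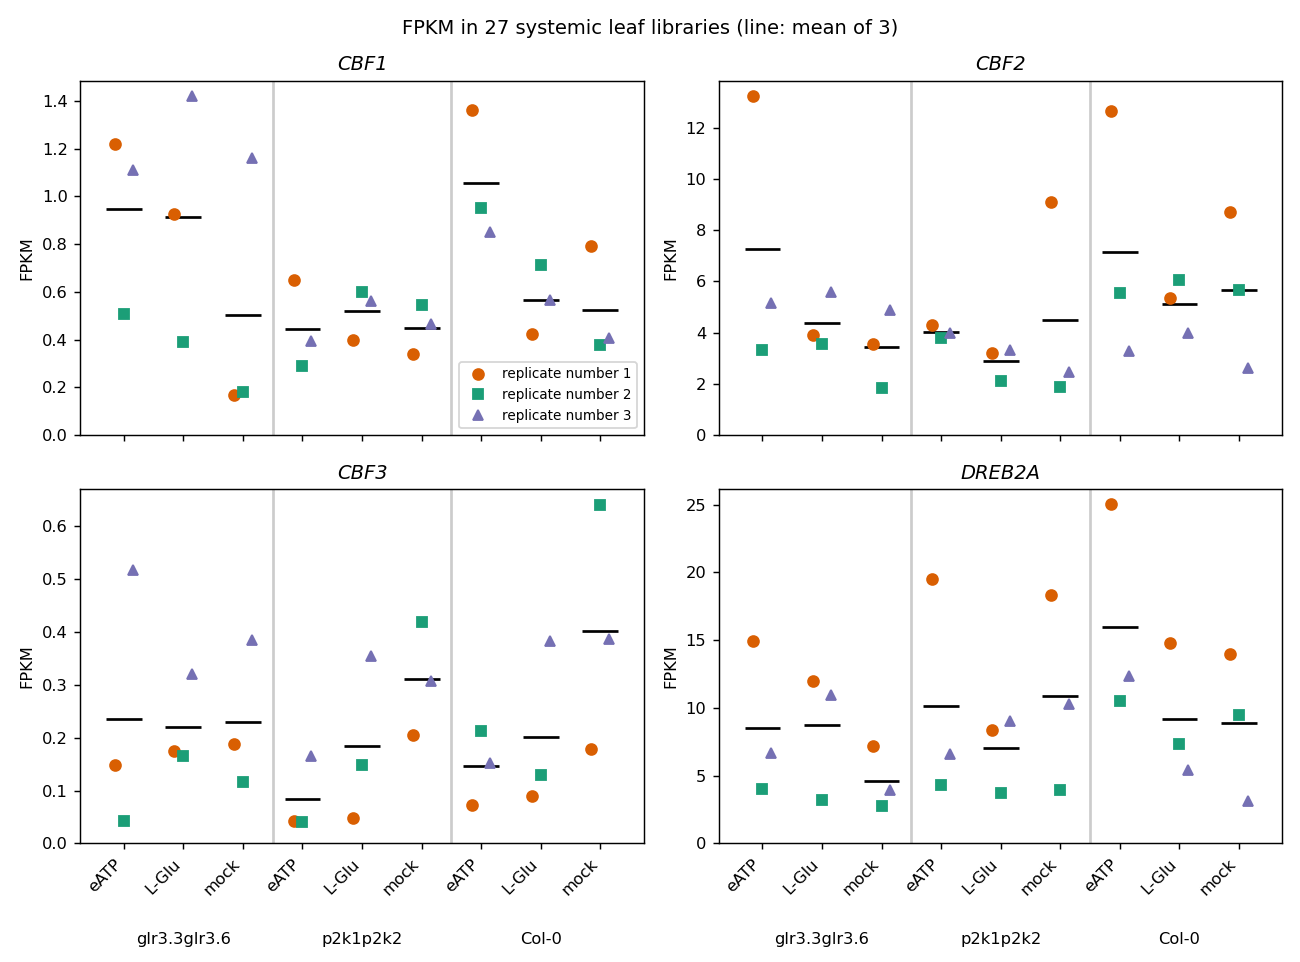
FPKM (y axis, linear, its own range in each panel) of CBF1, CBF2, CBF3 and DREB2A in all 27 libraries, by genotype and treatment (x axis). Symbols mark the replicate number and the black line is the mean of 3 pools; DREB2A pool 1 is the highest of its group in 8 of 9 groups, and the groups of each gene overlap widely.

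Ordered by mean, the 9 groups of each gene formed a run in which each group overlapped the next. CBF2 was highest in glr3.3glr3.6 after eATP (7.25 ± 5.28 FPKM, SD, n = 3), then in Col-0 after eATP (7.16 ± 4.89), Col-0 after mock (5.66 ± 3.04), Col-0 after L-Glu (5.13 ± 1.05), p2k1p2k2 after mock (4.48 ± 4.02), glr3.3glr3.6 after L-Glu (4.36 ± 1.09), p2k1p2k2 after eATP (4.03 ± 0.252), glr3.3glr3.6 after mock (3.43 ± 1.53) and p2k1p2k2 after L-Glu (2.89 ± 0.664). DREB2A was highest in Col-0 after eATP (16.0 ± 7.90 FPKM, SD, n = 3), then in p2k1p2k2 after mock (10.8 ± 7.20), p2k1p2k2 after eATP (10.1 ± 8.22), Col-0 after L-Glu (9.16 ± 4.94), Col-0 after mock (8.87 ± 5.44), glr3.3glr3.6 after L-Glu (8.72 ± 4.79), glr3.3glr3.6 after eATP (8.54 ± 5.69), p2k1p2k2 after L-Glu (7.04 ± 2.92) and glr3.3glr3.6 after mock (4.62 ± 2.28). CBF1 ran from 1.06 ± 0.269 FPKM in Col-0 after eATP down to 0.444 ± 0.184 FPKM in p2k1p2k2 after eATP (SD, n = 3 each). CBF3 ran from 0.402 ± 0.231 FPKM in Col-0 after mock down to 0.0832 ± 0.0719 FPKM in p2k1p2k2 after eATP (SD, n = 3 each). For each of the 4 genes, all 8 neighbouring pairs of groups overlapped, and in all 8 the gap between means was within the larger SD of the pair.

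The first question was whether the systemic leaf responded to eATP or L-Glu on the local leaf, with the mock of the same genotype as the control. No member was called in any of the 23 comparisons between groups (limma on log2(FPKM + 1), adjusted p under 0.05 after Benjamini-Hochberg adjustment over all genes of the fit). For CBF2 and DREB2A, 0 of 46 tests had an unadjusted p under 0.05, where 146 to 2418 of all 16577 genes did per comparison. Replicate number was not in the model of these tests, so its share of the variance counts as spread between pools. Unadjusted p from a fit with replicate number are not given, and they can differ from these. For CBF1 and CBF3, 3 of 46 tests of the fit without a filter had an unadjusted p under 0.05, and the lowest adjusted p was 0.468. The first was CBF1 for p2k1p2k2 minus Col-0 after eATP, where 3242 of all 32824 genes had such a p. The others were CBF1 and CBF3 for eATP minus mock averaged over the 3 genotypes, where 577 of all 32824 genes had such a p. The same model called 0% of 16577 genes for eATP or L-Glu against mock, or eATP against L-Glu, in any genotype, and at most 0.00305% of 32824 genes in the fit without a filter, so 0 called members was also the share among all genes.

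After eATP against mock, the log2 difference of FPKM + 1 for DREB2A was 0.87 ± 0.62 in Col-0 (SE, 95% interval -0.41 to 2.16, adjusted p = 1), 0.67 ± 0.62 in glr3.3glr3.6 (interval -0.61 to 1.96, adjusted p = 1) and -0.13 ± 0.62 in p2k1p2k2 (interval -1.41 to 1.16, adjusted p = 1). CBF2 differed by 0.24 ± 0.47 in Col-0 (interval -0.75 to 1.22), by 0.77 ± 0.47 in glr3.3glr3.6 (interval -0.21 to 1.75) and by 0.11 ± 0.47 in p2k1p2k2 (interval -0.87 to 1.097), with an adjusted p of 1 in each. All 6 intervals covered 0 and reached past 1 on the log2 scale, so this fit leaves room for a doubling as well as for no difference. Replicate number was not in this model. Its share of the variance, 51.7% for DREB2A and 27.6% for CBF2, therefore counts here as spread between pools. Intervals from a fit with replicate number are not given. Averaged over the 3 genotypes, the eATP minus mock difference was 0.47 ± 0.36 for DREB2A (unadjusted p = 0.2) and 0.37 ± 0.27 for CBF2 (unadjusted p = 0.185), with an adjusted p of 1 for both. Matched by genotype and replicate number, DREB2A was higher after eATP than after mock in 8 of 9 pairs and CBF2 in 7 of 9.

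Averaged over genotypes, CBF1 and CBF3 lay on opposite sides of mock after eATP, at levels near the bottom of the table. By genotype, the log2 difference of CBF1 was 0.43 in Col-0, 0.41 in glr3.3glr3.6 and -0.011 in p2k1p2k2. That of CBF3 was -0.28 in Col-0, -0.0052 in glr3.3glr3.6 and -0.27 in p2k1p2k2. CBF1 averaged 0.815 ± 0.378 FPKM after eATP and 0.493 ± 0.314 FPKM after mock (SD, n = 9 each). CBF3 averaged 0.155 ± 0.150 FPKM after eATP and 0.314 ± 0.163 FPKM after mock (SD, n = 9 each). Averaged over genotypes, the log2 difference was 0.28 ± 0.13 for CBF1 (SE, unadjusted p = 0.0391, adjusted p = 1) and -0.19 ± 0.081 for CBF3 (unadjusted p = 0.0322, adjusted p = 1). CBF1 was higher after eATP in 6 of 9 number-matched pairs, and CBF3 was lower after eATP in 8 of 9. The Col-0 libraries of CBF1 did not overlap, as given above, and its difference in Col-0 was 0.43 ± 0.22 (adjusted p = 1). Among the 16577 genes tested, which do not include CBF1 or CBF3, 1.41% were higher without overlap in that comparison. The p2k1p2k2 libraries of CBF3 did not overlap either, with a difference of -0.27 ± 0.14 (adjusted p = 1), and 1.09% of the genes tested were lower without overlap there.

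After L-Glu against mock, no member stood apart. DREB2A differed by 0.12 ± 0.62 in Col-0 (SE, interval -1.16 to 1.41), by 0.70 ± 0.62 in glr3.3glr3.6 (interval -0.58 to 1.99) and by -0.43 ± 0.62 in p2k1p2k2 (interval -1.71 to 0.86). CBF2 differed by -0.02 ± 0.47 in Col-0, by 0.32 ± 0.47 in glr3.3glr3.6 and by -0.27 ± 0.47 in p2k1p2k2. The adjusted p was 1 for both genes in each genotype. CBF1 averaged 0.665 ± 0.330 FPKM after L-Glu and 0.493 ± 0.314 FPKM after mock (SD, n = 9 each), and was higher after L-Glu in 8 of 9 number-matched pairs. Its difference over genotypes was 0.16 ± 0.13 on the log2 scale (adjusted p = 1). CBF3 averaged 0.201 ± 0.121 FPKM after L-Glu and 0.314 ± 0.163 FPKM after mock, and was lower after L-Glu in 7 of 9 pairs (difference -0.13 ± 0.081, adjusted p = 1). Because eATP and L-Glu share their mock libraries, the 2 differences of a gene are not independent.

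Set directly against L-Glu, eATP libraries were higher for DREB2A in 7 of 9 number-matched pairs and for CBF2 in 5 of 9. The log2 difference for DREB2A was 0.75 ± 0.62 in Col-0 (SE, interval -0.53 to 2.03, adjusted p = 0.948), and its libraries overlapped in all 3 genotypes. CBF1 was higher after eATP than after L-Glu in Col-0 without overlap (difference 0.39 ± 0.22, adjusted p = 1). There 1.85% of the genes tested, which do not include CBF1, were higher without overlap. CBF2 was higher after eATP than after L-Glu in p2k1p2k2 without overlap, at 3.803 to 4.30 FPKM against 2.12 to 3.32 FPKM (difference 0.39 ± 0.47, adjusted p = 1), where 3.85% of the genes tested were higher without overlap.

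**Figure D2:**
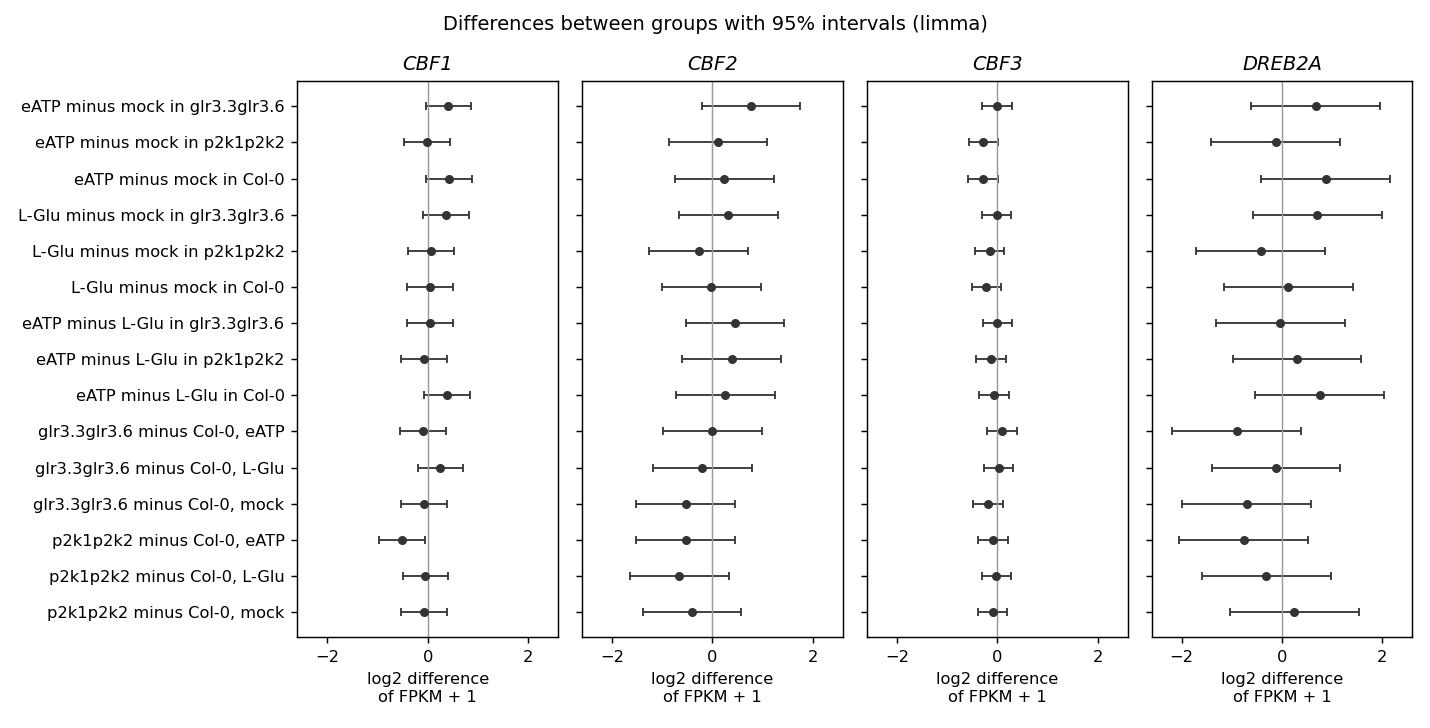
Log2 differences of FPKM + 1 (x axis) with 95% intervals from limma, for each gene and each of 15 comparisons between groups (rows). Replicate number was not in the model. CBF1 and CBF3 come from the fit of all genes, CBF2 and DREB2A from the filtered fit; all intervals cover 0 except that of CBF1 for p2k1p2k2 minus Col-0 after eATP.

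The second question was whether the lines named for the channels and kinases differed from Col-0. The tests came from the same model, without replicate number, whose share counts here too as spread between pools. DREB2A averaged 7.29 ± 4.38 FPKM in libraries labelled glr3.3glr3.6, 9.34 ± 5.92 FPKM in those labelled p2k1p2k2 and 11.3 ± 6.42 FPKM in Col-0 libraries (SD, n = 9 each). CBF2 averaged 5.02 ± 3.29 FPKM in libraries labelled glr3.3glr3.6, 3.799 ± 2.16 FPKM in those labelled p2k1p2k2 and 5.99 ± 3.07 FPKM in Col-0 libraries. Over the 3 treatments, the log2 difference from Col-0 for DREB2A was -0.57 ± 0.36 in glr3.3glr3.6 (SE, adjusted p = 0.795) and -0.28 ± 0.36 in p2k1p2k2 (adjusted p = 0.805). For CBF2 it was -0.25 ± 0.27 in glr3.3glr3.6 (adjusted p = 0.903) and -0.53 ± 0.27 in p2k1p2k2 (interval -1.10 to 0.04, unadjusted p = 0.065, adjusted p = 0.413). The same tests called 0.151% of all genes tested for glr3.3glr3.6 and 0.109% for p2k1p2k2. In the fit of all genes, from which 0 calls of CBF1 and CBF3 came, 0.0792% were called for glr3.3glr3.6 and 0.0731% for p2k1p2k2 over the 3 treatments; for glr3.3glr3.6 these were 0.0427% after eATP, 0.0244% after L-Glu and 0.0335% after mock, and for p2k1p2k2 0.0152% after L-Glu and 0.0122% after mock.

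Within single treatments, p2k1p2k2 libraries stood below Col-0 libraries without overlap in a pair of cases. After eATP, CBF1 was at 0.444 ± 0.184 FPKM in p2k1p2k2 and 1.06 ± 0.269 FPKM in Col-0 (SD, n = 3 each), a log2 difference of -0.51 ± 0.22 (SE, interval -0.96 to -0.05, unadjusted p = 0.0307, adjusted p = 0.468). There 0.0366% of all genes were called in the fit without a filter. Of the genes tested, which do not include CBF1, 2.35% were lower without overlap. After L-Glu, CBF2 was at 2.89 ± 0.664 FPKM in p2k1p2k2 and 5.13 ± 1.05 FPKM in Col-0, a difference of -0.66 ± 0.47 (adjusted p = 1). There 0.0302% of the genes tested were called, and 4.04% were lower without overlap. After mock, DREB2A differed by -0.70 ± 0.62 in glr3.3glr3.6 (adjusted p = 1, 0.0483% of genes called) and by 0.24 ± 0.62 in p2k1p2k2 (adjusted p = 1, 0.0362% called). After eATP, DREB2A differed by -0.90 ± 0.62 in glr3.3glr3.6 (adjusted p = 0.744, 0.0483% called) and by -0.76 ± 0.62 in p2k1p2k2 (adjusted p = 0.63, 0.0241% called).

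Whether the response to a treatment differed between the lines was tested as an interaction, in the model without replicate number. The eATP response of DREB2A in p2k1p2k2 minus that in Col-0 was -1.0 ± 0.87 on the log2 scale (SE, interval -2.82 to 0.81, adjusted p = 1). In glr3.3glr3.6 minus Col-0 it was -0.20 ± 0.87 (adjusted p = 1). The L-Glu response of DREB2A differed from that in Col-0 by 0.58 ± 0.87 in glr3.3glr3.6 and by -0.55 ± 0.87 in p2k1p2k2. For CBF2 the eATP response differed by 0.53 ± 0.67 in glr3.3glr3.6 and by -0.12 ± 0.67 in p2k1p2k2, and the L-Glu response by 0.34 ± 0.67 in glr3.3glr3.6 and by -0.25 ± 0.67 in p2k1p2k2, with an adjusted p of 1 in each. The share of all genes tested that these 4 interactions called was 0%.

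DREB2A and CBF2 were higher in libraries numbered 1 than in those numbered 2 and 3. DREB2A averaged 14.9 ± 5.55 FPKM in the 9 libraries numbered 1, against 5.46 ± 2.87 FPKM in those numbered 2 and 7.60 ± 3.23 FPKM in those numbered 3 (SD, n = 9 each). CBF2 averaged 7.12 ± 3.94 FPKM in libraries numbered 1, against 3.76 ± 1.66 FPKM in those numbered 2 and 3.92 ± 1.12 FPKM in those numbered 3. Pool 1 held the highest DREB2A value in 8 of 9 groups and the lowest in 0, and the highest CBF2 value in 5 of 9 groups and the lowest in 0. With group means in the model, number 1 minus the mean of numbers 2 and 3 was 1.12 ± 0.18 on the log2 scale for DREB2A (SE, limma adjusted p = 4.21e-05) and 0.66 ± 0.19 for CBF2 (adjusted p = 0.0079). Both genes passed, where 53.2% of all genes tested also passed, 3074 higher and 5745 lower in number 1. The labels do not say whether a number marks a day, a batch or nothing, so its part in these values was not tested.

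CBF3 went the other way from CBF2. It averaged 0.127 ± 0.0641 FPKM in libraries numbered 1, against 0.213 ± 0.196 FPKM in those numbered 2 and 0.331 ± 0.114 FPKM in those numbered 3 (SD, n = 9 each). In the fit of all 32824 genes, where 27.8% passed, number 1 minus the mean of numbers 2 and 3 was -0.16 ± 0.054 for CBF3 (SE, limma adjusted p = 0.0292). That call did not hold without pool 1 of p2k1p2k2 after L-Glu (adjusted p = 0.0652), of p2k1p2k2 after mock (0.054), of Col-0 after L-Glu (0.0563) or of Col-0 after mock (0.0795). CBF1 averaged 0.697 ± 0.411 FPKM in libraries numbered 1, against 0.506 ± 0.233 FPKM in those numbered 2 and 0.770 ± 0.379 FPKM in those numbered 3, a difference of 0.04 ± 0.10 (adjusted p = 1). Between numbers 2 and 3 no member passed, where 26.4% of the genes tested and 12% of all genes did. In the fit of all genes, 1 of the 4, CBF3, had an unadjusted p under 0.05, as did 7355 of 32824 genes. The difference of number 2 minus number 3 was -0.43 ± 0.21 for DREB2A (adjusted p = 0.139) and -0.10 ± 0.22 for CBF2 (adjusted p = 0.791). For DREB2A it passed without the Col-0 mock library numbered 2 (-0.59, adjusted p = 0.0253) or without the one numbered 3 (-0.59, adjusted p = 0.019), and for CBF3 without the one numbered 2 (-0.19, adjusted p = 0.0285).

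**Figure D3:**
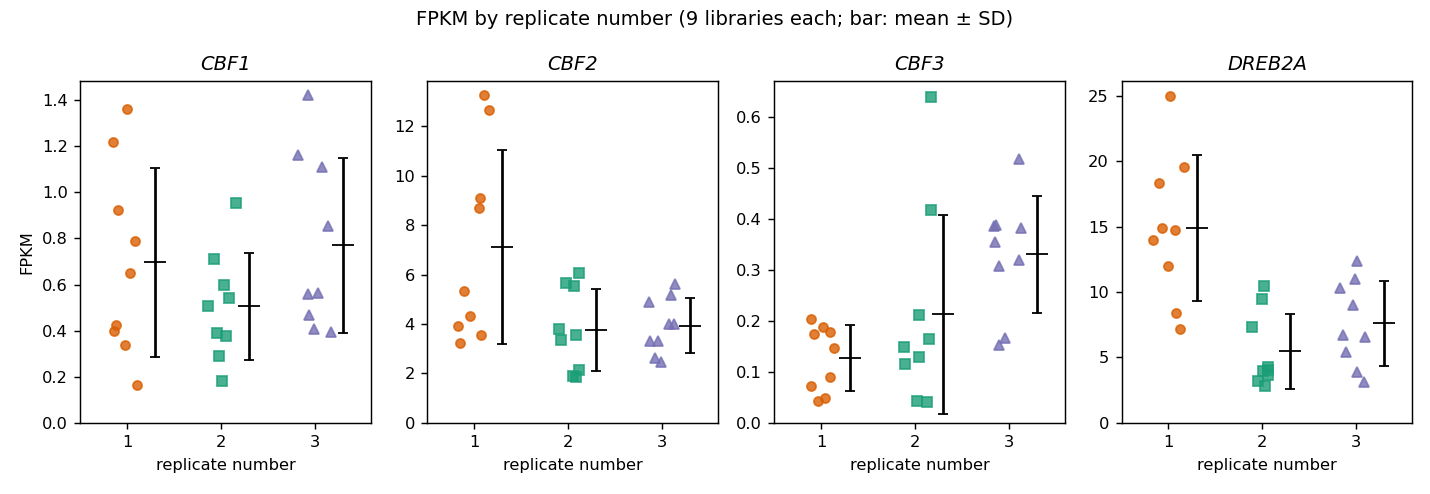
FPKM (y axis) of each gene by replicate number (x axis), 9 libraries per number, with the mean ± SD beside the points. DREB2A averages 14.9 FPKM in libraries numbered 1, against 5.46 and 7.60 FPKM in those numbered 2 and 3, while CBF3 is lowest in libraries numbered 1.

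The sums of squares of log2(FPKM + 1) put these sources side by side, as a description. Replicate number held 51.7 ± 16.8% of the variance of DREB2A (jackknife SE over libraries), 27.6 ± 16.9% of that of CBF2, 31.7 ± 21.9% of that of CBF3 and 9.98 ± 11.7% of that of CBF1, beside a median of 31.4% over the genes tested. Treatment held 6.64 ± 10.6% for DREB2A, 8.67 ± 11.9% for CBF2, 20.2 ± 19.7% for CBF3 and 15.4 ± 15.1% for CBF1, beside a median of 3.75%. Genotype held 9.27 ± 12.05% for DREB2A, 13.4 ± 14.6% for CBF2, 2.31 ± 5.81% for CBF3 and 13.0 ± 12.5% for CBF1, beside a median of 7.88%. The share of DREB2A under replicate number stood above the median gene, those of CBF2 and CBF3 lay near it, and that of CBF1 lay below it.

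**Figure D4:**
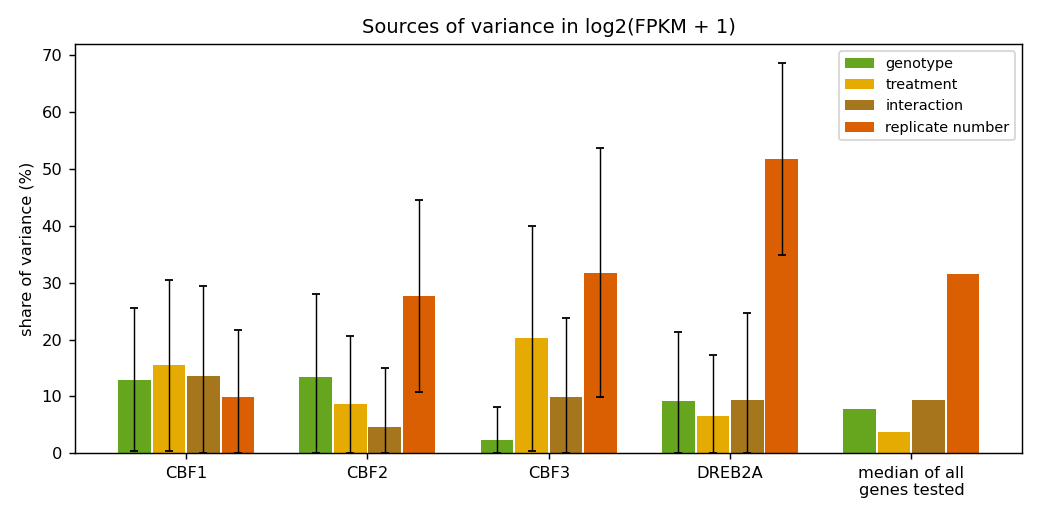
Share of the variance of log2(FPKM + 1) (y axis, percent) held by genotype, treatment, their interaction and replicate number for each gene, with jackknife standard errors, beside the median share over all genes tested (no error bar). The bar for replicate number in DREB2A, at 51.7%, is the tallest.

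Genes that act above the CBF genes did not move as one with replicate number. Of 13 listed regulators of CBF transcription, all tested, 4 were higher and 5 lower in number 1 at an adjusted p under 0.05, with a median log2 difference of -0.06 beside -0.07 over all genes tested. The share of all genes tested that passed was 53.2%, with 3074 of 16577 higher and 5745 lower. ICE1, the bHLH activator of CBF3, was at 14.6 ± 1.13 FPKM in number 1, against 15.9 ± 2.26 in number 2 and 18.3 ± 1.56 in number 3 (SD, n = 9 each; difference -0.21, adjusted p = 0.00247), and its paralog ICE2 was lower too (-0.43, adjusted p = 9.28e-05). CAMTA3, a calmodulin-binding activator of CBF2, was at 91.6 ± 6.74 FPKM in number 1, against 82.3 ± 5.95 in number 2 and 77.1 ± 10.7 in number 3 (0.20, adjusted p = 0.0112). MYB15, a repressor of CBF genes, was at 4.71 ± 1.82 FPKM in number 1, against 3.67 ± 2.01 in number 2 and 1.99 ± 0.620 in number 3 (0.61, adjusted p = 0.00214). The zinc finger ZAT12, which dampens CBF expression, was at 101 ± 18.1 FPKM in number 1, against 60.2 ± 16.5 in number 2 and 55.2 ± 9.14 in number 3 (0.81, adjusted p = 1.19e-06). PIF3, a light-regulated repressor, was at 2.17 ± 0.424 FPKM in number 1, against 4.25 ± 0.822 in number 2 and 5.12 ± 1.00 in number 3 (-0.83, adjusted p = 1.98e-07). PIF7 was higher (0.25), and BZR1 (-0.19) and the photoreceptor PHYB (-0.34) were lower; PIF4 averaged 64.1 ± 6.89 FPKM in number 1, against 62.8 ± 4.96 in number 2 and 65.3 ± 9.25 in number 3.

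Of 9 genes whose products modify ICE1 or CBF proteins, 4 were higher and 1 lower in number 1 (median 0.12), and these 5 of 9 lie near the 53.2% of all genes tested. OST1, the kinase that stabilises ICE1, was at 8.25 ± 1.66 FPKM in number 1, against 6.27 ± 1.31 in number 2 and 4.95 ± 0.866 in number 3 (SD, n = 9 each; 0.49, adjusted p = 1.85e-07). The MAP kinase MPK3 was at 414 ± 102 FPKM in number 1, against 328 ± 59.7 in number 2 and 303 ± 45.3 in number 3 (0.37, adjusted p = 0.000121). The SUMO ligase SIZ1 (0.22) and the gene AT1G16670 (0.61) were also higher, and the ubiquitin ligase HOS1 was lower (-0.14, adjusted p = 0.0201). Of 15 clock genes, 14 were tested, and 6 were higher and 3 lower (median 0.09). The morning genes CCA1 and LHY, which bind CBF promoters, were at 18.3 ± 3.13 and 5.80 ± 0.787 FPKM in number 1, against 10.1 ± 1.55 and 3.36 ± 0.632 FPKM in number 2 and 15.4 ± 2.51 and 4.28 ± 0.776 FPKM in number 3. PRR9 (0.43), RVE8 (0.36), LNK1 (0.36) and TOC1 (0.16) were higher as well, and PRR7 (-0.16), GI (-0.22) and ELF3 (-0.37) were lower. PRR5 was at 10.7 ± 1.93 FPKM in number 1, against 12.3 ± 3.91 in number 2 and 11.4 ± 1.87 in number 3.

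Of 16 regulators and partners of DREB2A, 15 were tested, and 4 were higher and 4 lower in number 1 (median 0.00), and these 8 of 15 also lie near the 53.2% of all genes tested. The ubiquitin ligases DRIP1 and DRIP2, which mark the DREB2A protein for degradation, were at 4.42 ± 0.772 and 5.35 ± 0.354 FPKM in number 1, against 4.25 ± 0.7398 and 6.54 ± 0.436 FPKM in number 2 and 3.93 ± 0.506 and 6.93 ± 0.967 FPKM in number 3 (SD, n = 9 each). Only DRIP2 of the pair passed (-0.28, adjusted p = 0.000417). Of the BPM adaptors that also destabilise DREB2A, BPM1 (0.26), BPM2 (0.09) and BPM4 (0.21) were higher and BPM3 (-0.15) and BPM6 (-0.14) lower. HSFA1A, one of the heat shock factors that induce DREB2A, was higher (0.16, adjusted p = 0.0259) and the partner NF-YC10 lower (-0.25, adjusted p = 0.0012). GRF7, which represses DREB2A, was listed at 0 in 21 of 27 libraries.

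The close relatives were low or did not pass. CBF4 was listed at 0 in 23 of 27 libraries and DDF2 in 15 of 27. DREB2B averaged 0.424 ± 0.185 FPKM (SD, n = 27). DDF1, a relative tied to gibberellin breakdown under salt, averaged 7.48 ± 8.93 FPKM and reached 38.4 FPKM. DDF1 was at 13.4 ± 13.4 FPKM in libraries labelled glr3.3glr3.6, 4.97 ± 3.14 FPKM in those labelled p2k1p2k2 and 4.11 ± 3.20 FPKM in Col-0 libraries (SD, n = 9 each), and it passed in no comparison. Of the 10 relatives, 3 were tested, and 0 were called in any of the 25 comparisons. Across these comparisons the share of all genes tested that was called ran from 0% to 53.2%, the latter for number 1 against 2 and 3.

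Of 12 listed CBF target genes, all tested, 8 were lower and 0 higher in number 1 at an adjusted p under 0.05, where 5745 of all 16577 genes tested were lower, with a median log2 difference of -0.37 beside -0.07 over all genes tested. RD29A, a protective protein gene with several DREB elements, was at 104 ± 32.2 FPKM in number 1, against 147 ± 40.2 in number 2 and 218 ± 55.4 in number 3 (SD, n = 9 each; -0.80, adjusted p = 0.000216). KIN2 was at 1038 ± 134 FPKM in number 1, against 1414 ± 221 in number 2 and 1578 ± 334 in number 3 (-0.52, adjusted p = 2.96e-05). COR15A, a chloroplast protein that protects membranes on freezing, was at 383 ± 104 FPKM in number 1, against 368 ± 92.9 in number 2 and 482 ± 176 in number 3, and did not pass. GOLS3 was at 2.45 ± 1.48 FPKM in number 1, against 3.20 ± 1.59 in number 2 and 4.54 ± 3.28 in number 3, and did not pass either. COR15B was at 93.7 ± 29.4 FPKM in number 1, against 68.6 ± 15.1 in number 2 and 90.4 ± 23.0 in number 3 (0.22, adjusted p = 0.14), and ERD10, the fourth that did not pass, had a difference of -0.18 (adjusted p = 0.0707). KIN1 (-0.67), RAP2.1 (-0.55), LTI30 (-0.38), COR413-PM1 (-0.35), COR413IM1 (-0.32) and the dehydrin COR47 (-0.29) passed as lower. CBF3 and these 8 targets were lower in number 1, CBF2 was higher, and CBF1 differed by 0.04 without passing. The CBF3 call was lost when any 1 of 4 libraries was left out. A link between the CBF genes and the targets was not tested.

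The 1 listed gene that passed between groups was the dehydrin ERD10, a CBF target. It was at 276 ± 43.4 FPKM in libraries labelled glr3.3glr3.6, 338 ± 51.2 FPKM in those labelled p2k1p2k2 and 411 ± 73.5 FPKM in Col-0 libraries (SD, n = 9 each). The log2 difference of glr3.3glr3.6 from Col-0 over the 3 treatments was -0.57 ± 0.10 (SE, limma adjusted p = 0.0191), the same comparison in which 0.151% of the genes tested were called.

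DREB2A target genes were mixed across replicate numbers. Of 6 listed, 4 were tested: 2 were higher and 1 lower in number 1. Among all 16577 genes tested, 53.2% passed, 3074 higher and 5745 lower. GOLS1, an enzyme of raffinose synthesis, was at 6.95 ± 3.40 FPKM in number 1, against 2.57 ± 1.64 in number 2 and 5.68 ± 0.966 in number 3 (SD, n = 9 each; 0.66, adjusted p = 0.00324). LEA14 was at 158 ± 36.1 FPKM in number 1, against 98.5 ± 26.3 in number 2 and 164 ± 36.6 in number 3 (0.32, adjusted p = 0.0112). The heat shock factor HSFA3, a direct DREB2A target in heat, was at 7.20 ± 2.62 FPKM in number 1, against 7.68 ± 0.592 in number 2 and 5.94 ± 1.58 in number 3, and did not pass. LEA7 averaged 0.392 ± 0.289 FPKM (SD, n = 27), under the minimum for the test, and RD29A, which is on both target lists, was the 1 that was lower.

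Other transcription factors that cold induces at the same time as CBF genes were mostly higher in number 1. Of 17 listed, 15 were tested, and 12 were higher and 2 lower, with a median log2 difference of 0.36 beside -0.07 over all genes tested. Among all 16577 genes tested, 53.2% passed, 3074 higher and 5745 lower. ZAT10, a zinc finger repressor, was at 282 ± 51.4 FPKM in number 1, against 224 ± 34.4 in number 2 and 212 ± 29.5 in number 3 (SD, n = 9 each; 0.36, adjusted p = 4.65e-05). RAV1 was at 147 ± 11.1 FPKM in number 1, against 96.5 ± 9.13 in number 2 and 122 ± 15.1 in number 3 (0.44, adjusted p = 3.75e-06). CEJ1, a DREB-type repressor, was at 93.4 ± 25.3 FPKM in number 1, against 46.9 ± 15.6 in number 2 and 63.7 ± 11.5 in number 3 (0.76, adjusted p = 2.19e-05). ERF11 (0.48), WRKY33 (0.46), WRKY40 (0.45), WRKY22 (0.37), MYB44 (0.36), CZF1 (0.32), ERF4 (0.28) and ERF6 (0.21) passed as higher. ZAT12, described above, completes the 12. The cytokinin response factor CRF2 (-0.66) and MYB73 (-0.20) passed as lower. HSFC1 averaged 0.666 ± 0.353 FPKM (SD, n = 27), under the minimum.

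Between numbers 2 and 3, 26.4% of all genes tested passed, 2118 higher and 2252 lower in number 2. Of the CBF targets RD29A (-0.57) and COR413IM1 (-0.47) were lower in number 2, and of the DREB2A targets also GOLS1 (-0.99) and LEA14 (-0.75). Of the regulators and modifiers, MYB15 (0.56) and OST1 (0.28) were higher in number 2 and ICE1 (-0.20), AT1G16670 (-0.20) and RCD1 (-0.30), a DREB2A-binding protein, were lower. Among clock genes 7 were lower in number 2 and 0 higher, led by CCA1 (-0.56) and PRR9 (-0.45), with LNK1 (-0.39), LHY (-0.28), RVE8 (-0.27), PRR7 (-0.23) and LNK2 (-0.21). Among the other early factors CRF2 (0.59) and WRKY40 (0.15) were higher, and CEJ1 (-0.47), RAV1 (-0.33) and WRKY22 (-0.16) lower.

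**Figure D5:**
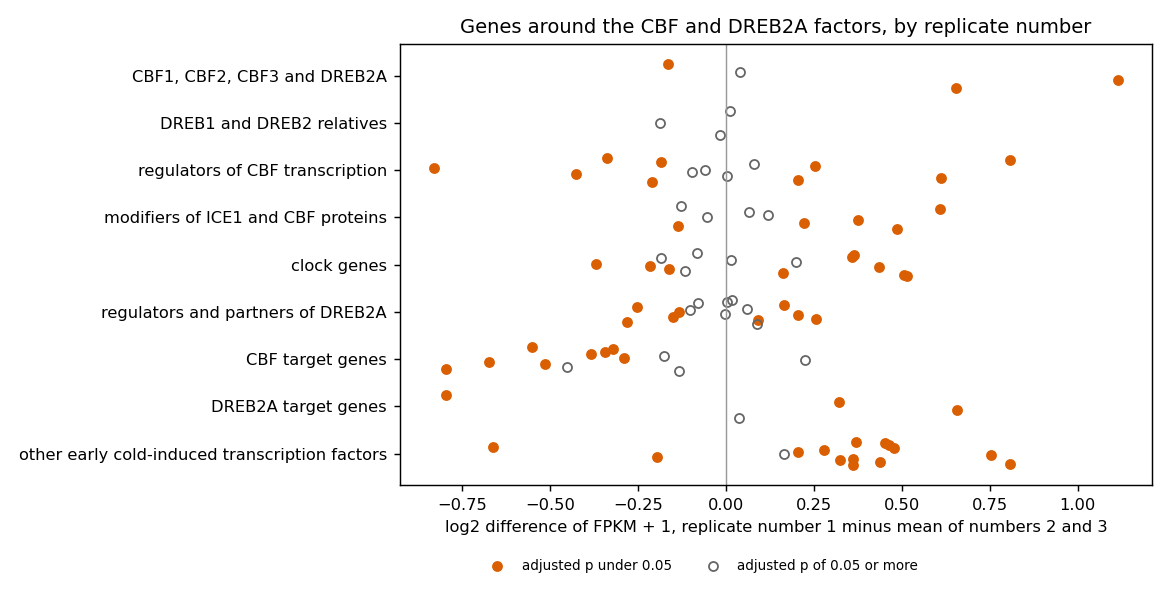
Log2 difference of FPKM + 1 between libraries numbered 1 and the mean of those numbered 2 and 3 (x axis) for the 4 members and each tested gene of the 8 lists of relatives, regulators, clock genes, targets and early factors (rows), without the cell type and senescence markers; filled points have a limma adjusted p under 0.05. Among the genes drawn, DREB2A lies farthest right at 1.12, all called CBF targets lie left of 0, and 12 of the 14 called early cold-induced factors lie right of 0.

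Cell type markers also moved with replicate number. The epidermis markers ATML1 (-0.33), PDF2 (-0.32) and FDH (-0.16), the guard cell markers MYB60 (-0.51) and KAT1 (-0.67) and the vasculature markers SUC2 (-0.17) and ATHB-8 (-0.34) were lower in number 1. These are 7 of 9 markers of the 3 cell types, where 5745 of all 16577 genes tested were lower, and 0 of the 9 were higher. FAMA (guard cell) and APL (vasculature) did not pass. The senescence-induced gene SAG13 was at 24.3 ± 20.1 FPKM in number 1, against 3.40 ± 2.06 in number 2 and 4.93 ± 0.503 in number 3 (SD, n = 9 each; 2.09, adjusted p = 1.16e-06). Of 5 mesophyll genes, RCA was higher (0.10), RBCS1A (-0.13) and LHCB1.1 (-0.16) were lower, and RBCS2B had a difference of -0.02 (adjusted p = 0.739). In number 2 minus number 3, where 26.4% of all genes tested passed, FAMA (0.25), KAT1 (0.54), SUC2 (0.15), APL (0.22), RBCS1A (0.26) and LHCB1.1 (0.17) were higher in number 2 and FDH (-0.17) was lower. SAG12, the late senescence marker, was listed at 0 in all libraries. The part of cell makeup in the DREB2A and CBF2 values was not tested. In pooled leaf tissue, fewer cells that express a gene and less RNA per cell cannot be told apart.

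Across the 27 libraries, CBF2 and DREB2A were the most alike pair, with a Pearson r of 0.70 and a Spearman rho of 0.65 of log2(FPKM + 1). The libraries share groups and numbers, so these are descriptions with no p. Within numbers the Pearson r was 0.68 in number 1, 0.84 in number 2 and -0.00 in number 3 (9 libraries each), and it was 0.53 with group and number means removed. Without the 2 libraries farthest from the median of CBF2 it was 0.62, and the 27-library value does not hold in number 3. CBF1 and CBF2 had r = 0.54 and rho = 0.43 over 27 libraries, with 0.65, 0.42 and 0.80 in numbers 1, 2 and 3 and 0.45 without the 2 farthest libraries. CBF2 and CBF3 had r = -0.09 over 27 libraries (0.06 without the 2 farthest), but 0.20, 0.16 and 0.27 within numbers 1, 2 and 3. CBF3 and DREB2A had r = -0.20 over 27 libraries, with -0.24, 0.47 and -0.47 within numbers 1, 2 and 3. CBF1 and DREB2A had r = 0.41 over 27 libraries (0.29 without the 2 farthest), with 0.60, 0.61 and 0.21 within numbers 1, 2 and 3. With group and number means removed, r was 0.52 for CBF1 and CBF2, 0.28 for CBF1 and CBF3 and 0.36 for CBF1 and DREB2A. It was 0.26 for CBF2 and CBF3 and 0.32 for CBF3 and DREB2A, so the sign of the last 2 pairs turned.

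The genes most like DREB2A over the 27 libraries were HSFA2 (r = 0.89), a heat shock factor, and the dehydrin ERD14 (0.87). AT1G67360 (0.87), AT1G22190 (an AP2/ERF factor, 0.87) and RABA6b (0.87) came next. HSFA2 averaged 13.5 FPKM in number 1, against 4.03 FPKM in number 2 and 7.99 FPKM in number 3. It kept r = 0.77 with group and number means removed, where AT3G16230 led (0.82), followed by HSFA2, EXGT-A3 (0.77), ATMG01170 (0.76) and SRC2 (0.76). The genes most like CBF2 were AT5G25240 (0.84), AT4G16563 (0.81), AT5G63290 (0.80), RAS1 (0.79) and AT1G61470 (0.79), and with group and number means removed LAZ1 (0.83), FYPP3 (0.82), CYP706A6 (0.80), AT1G36730 (0.79) and AT3G23170 (0.78). The 2 sets of 5 for CBF2 shared no gene. Each gene named for DREB2A and CBF2 was picked as 1 of the 5 highest correlations among all genes tested, over 27 points.

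For CBF1 the highest values were AT3G27090 (0.71), GAD (0.70), AT2G29320 (0.69), CYP71B20 (0.69) and AT5G26770 (0.68), and with means removed AT5G10750 (0.82), HFR1 (0.82), AT2G14910 (0.81), AT5G41400 (0.80) and CYP71B20 (0.80). For CBF3 they were AT3G03295 (0.69), AT2G22890 (0.67), AT3G14730 (0.67), eIF6A (0.64) and G3Pp4 (0.63), and with means removed AT3G03295 (0.79), AT1G26730 (0.78), NAI2 (0.76), BEN1 (0.75) and PAO1 (0.75). AT3G03295 averaged 1.05 FPKM, from 0 to 17.5 FPKM, and 2.07e-06 FPKM in number 1. Its mean thus rests largely on its highest library, and whether its r holds without that library was not tested. Each is the highest of 16577 correlations over 27 points, at member levels under 1 FPKM.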

How the data were processed

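RNA-seq of 27 systemic leaf libraries was taken from the deposited FPKM table. Per the submitters' processing notes, the authors used Cuffdiff 2.2.1 and Cufflinks 2.2.1, HISAT2 2.2.1 with build TAIR10, SAMtools 1.19, FastQC 0.11.9 and Trim Galore 0.6.7; order and settings are not given in the sources used here. The FPKM values the authors deposited hold no counts, so depth is unknown, and an exact 0 may be a failed estimate. Gene names came from RefSeq, where 32539 of 32824 identifiers matched.

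Log2(FPKM + 1) of 16577 genes whose mean FPKM reached 1 was fitted with limma 3.58.1 (R 4.3.3), with 1 mean per group, all 27 libraries, 18 residual degrees of freedom, a variance trend and Benjamini-Hochberg adjustment over all genes, and calls at an adjusted p under 0.05. On this scale a fold change understates the change of low genes. There were 23 comparisons between groups and 2 between replicate numbers (16 residual degrees of freedom). The fit of all 32824 genes, used for CBF1 and CBF3, was chosen after seeing the data. The script was tested on simulated data with independent noise in each library. That test does not show how the fit behaves where most genes differ by replicate number. Alternatives were a pseudocount of 0.1, no filter, a mean of at least 5 FPKM, quantile normalization, median-of-ratios scaling, library weights, only the libraries compared, replicate blocks and leaving out each library. Replicate numbers come from the labels; all pair correlations were over 0.1 in 12 of 23 comparisons. Tables and plots used Python 3.11.15, numpy 2.4.6, pandas 2.3.3 and matplotlib 3.10.9.

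The 4 genes and the lists were chosen with earlier results of these data known. Named genes are the 4 members, the 5 genes with the highest Pearson r to each (over 27 libraries, and with group and number means removed), and, from the lists of relatives, regulators, modifiers, clock genes, targets and early factors, the first 4 of each and every gene that passed a test. Cell type markers were listed apart.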

Additional observations from a re-analysis of the deposited data

Results flagged for a closer look

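CBF2 in pool 1 of glr3.3glr3.6 after eATP, at 13.3 FPKM, stood apart from the other libraries labelled glr3.3glr3.6: its gap to the next was 0.671 of their range, above the limit of 0.493 for 9 libraries. CBF2 in pool 1 of p2k1p2k2 after mock, at 9.10 FPKM, stood apart from the other libraries labelled p2k1p2k2 in the same way, with a gap of 0.665 of their range. These were 2 of 24 sets of 9 libraries looked at, and a limit at the 95% level marks some sets by chance.

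For CBF2 on the log2 scale, each L-Glu library of glr3.3glr3.6 lay above the mean of that line's mock libraries, and each L-Glu library of p2k1p2k2 lay below the mean of its own mock libraries. The L-Glu minus mock difference in glr3.3glr3.6 minus that in p2k1p2k2 was 0.59, and that difference was not tested. Matched by number, 1 p2k1p2k2 pair was lower after L-Glu, pool 1 (-1.26), whose mock library is the one at 9.10 FPKM, and pools 2 (0.12) and 3 (0.32) were higher.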

How the results depend on the processing

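Limits were set by the spread between 3 pools, by unknown depth and by levels under 1 FPKM for CBF1 and CBF3. DREB2A and CBF2 stayed higher in replicate number 1 at an adjusted p under 0.05 in every alternative in which they were tested and in all 27 fits that left out 1 library. With a minimum mean of 5 FPKM, 1 member was called for number 1 against 2 and 3, because CBF2 was no longer tested. With library weights, 1 tested member was called for number 2 against 3: DREB2A at -0.51 (adjusted p = 0.0458), and CBF3 at -0.18 (adjusted p = 0.0444) in the fit of all genes; leaving out 1 library gave 0 to 1. Quantile normalization moved the Pearson r of CBF2 and CBF3 to -0.16. With the replicate block, 0 of 92 differences between groups were called (lowest limma adjusted p = 0.145). With the replicate block within genotype, 0 of 92 were called (lowest 0.214). The pairing thus changed no call, but the intervals and unadjusted p of the block fits are not given here. Of 713 differences between groups under alternatives other than leaving out a library, 0 were called and 20 changed sign. The cause of the sign changes was not tested. The share of all genes called under the blocks and other alternatives is not given here. These counts of 0 are therefore not read as a result about the members. The listed genes around the 4 members were not refitted under the alternatives. Here glr stands for glr3.3glr3.6 and p2k for p2k1p2k2. Under a pseudocount of 0.1, the sign changed for CBF3 L-Glu minus mock in glr (0.0051), CBF3 eATP minus L-Glu in glr (-0.16), CBF1 eATP response glr minus Col-0 (0.20), CBF3 eATP response p2k minus Col-0 (-0.23), CBF1 glr minus Col-0 over treatments (-0.039). Under quantile normalization, the sign changed for CBF2 L-Glu minus mock over genotypes (-0.014), CBF3 eATP minus L-Glu in glr (-0.0077), CBF3 eATP response p2k minus Col-0 (-0.0038), CBF1 glr minus Col-0 over treatments (-0.0065). Under median-of-ratios scaling, the sign changed for CBF2 L-Glu minus mock over genotypes (-0.0049), CBF3 eATP response p2k minus Col-0 (-0.00023). Under library weights, the sign changed for CBF2 L-Glu minus mock in Col-0 (0.14), DREB2A glr minus Col-0, L-Glu (0.18), CBF3 eATP minus mock in glr (0.10), CBF3 L-Glu minus mock in glr (0.079), CBF1 eATP minus L-Glu in glr (-0.11), CBF1 eATP response glr minus Col-0 (0.031). Under replicate block within genotype, the sign changed for CBF3 p2k minus Col-0, L-Glu (0.021), CBF1 glr minus Col-0 over treatments (-0.091), CBF3 glr minus Col-0 over treatments (0.072). 

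Leaving out 1 library at a time changed a sign or a call for these differences, given from lowest to highest. CBF1: L-Glu minus mock in Col-0 (-0.023 to 0.17), L-Glu response p2k minus Col-0 (-0.10 to 0.090), eATP minus L-Glu in glr (-0.17 to 0.23), eATP minus mock in p2k (-0.11 to 0.066), eATP response glr minus Col-0 (-0.17 to 0.28), glr minus Col-0, eATP (-0.20 to 0.082), glr minus Col-0 over treatments (-0.068 to 0.10), glr minus Col-0, mock (-0.37 to 0.078), p2k minus Col-0, L-Glu (-0.11 to 0.023), p2k minus Col-0, mock (-0.13 to 0.056), number 1 minus 2 and 3 (-0.00063 to 0.10). CBF2: L-Glu minus mock in Col-0 (-0.41 to 0.31), L-Glu minus mock in p2k (-0.62 to 0.29), L-Glu minus mock over genotypes (-0.12 to 0.19), L-Glu response p2k minus Col-0 (-0.60 to 0.31), eATP minus L-Glu in Col-0 (-0.20 to 0.64), eATP minus L-Glu in glr (-0.036 to 0.82), eATP minus mock in Col-0 (-0.22 to 0.62), eATP minus mock in p2k (-0.23 to 0.67), eATP response p2k minus Col-0 (-0.50 to 0.44), glr minus Col-0, eATP (-0.49 to 0.45), number 2 minus 3 (-0.21 to 0.023). CBF3: L-Glu minus mock in glr (-0.075 to 0.081), L-Glu response p2k minus Col-0 (-0.052 to 0.19), eATP minus L-Glu in Col-0 (-0.13 to 0.044), eATP minus L-Glu in glr (-0.15 to 0.12), eATP minus mock in glr (-0.16 to 0.11), eATP response p2k minus Col-0 (-0.11 to 0.13), glr minus Col-0, L-Glu (-0.037 to 0.13), glr minus Col-0, eATP (-0.065 to 0.21), glr minus Col-0 over treatments (-0.073 to 0.020), p2k minus Col-0, L-Glu (-0.12 to 0.086), p2k minus Col-0, mock (-0.21 to 0.032), number 1 minus 2 and 3 (-0.18 to -0.14), number 2 minus 3 (-0.19 to -0.10). DREB2A: L-Glu minus mock in Col-0 (-0.41 to 0.52), L-Glu minus mock in p2k (-0.96 to 0.029), L-Glu minus mock over genotypes (-0.044 to 0.31), eATP minus L-Glu in glr (-0.55 to 0.35), eATP minus L-Glu in p2k (-0.27 to 0.71), eATP minus mock in p2k (-0.69 to 0.33), eATP response glr minus Col-0 (-0.65 to 0.33), glr minus Col-0, L-Glu (-0.41 to 0.40), p2k minus Col-0, L-Glu (-0.59 to 0.060), p2k minus Col-0, mock (-0.29 to 0.77), number 2 minus 3 (-0.59 to -0.31).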
